A study of Mus musculus with 31 samples.

Results

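Fos, Fosb, Fosl2, Jun, Junb and Jund encode most of the subunits of the transcription factor AP-1, and their transcripts were followed here in brain libraries from control mice and from mice given deltamethrin during development. The genes were taken by symbol, 6 of the 48795 genes in the count table, and all 6 were among the 19529 genes with enough counts to test. Fosl1, which completes the Fos family, is given where it helps and is not counted among the 6. Total RNA was sequenced from 31 samples, each an aliquot of homogenised brain tissue, of which 13 were control and 18 were labelled with deltamethrin, a pyrethroid insecticide that holds voltage-gated sodium channels open. The study asked how developmental exposure changed transcription and protein kinase activity in the brain, and the kinase measurements are not analysed here. The labels give no strain, age, sex, litter, dose, vehicle or time of collection for either group, and they do not say whether each sample came from a separate animal, so the p-values measure the spread between these samples, which may be partly technical.

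AP-1 is a dimer. Jun proteins can pair with one another or with Fos proteins, whereas Fos proteins need a Jun partner to bind DNA, and the pair binds short palindromic sites in promoters and enhancers. In neurons Fos, Fosb and Junb are immediate early genes: calcium entry and MAP kinase signalling switch them on through SRF, ELK and CREB proteins that are already present, and their mRNAs are soon lost again. Jund is transcribed more steadily in most tissues.

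The total count per library ran from 17570311 to 38680621, and mitochondrial rRNA took between 7.32% and 40.2% of it, with a median of 13.97%. Control replicate 2 had both the lowest total and the highest mitochondrial share (numbers are given in accession order and carry no pairing). Levels are given as CPM, counts divided by a library size that TMM factors adjust for composition. Summed markers of neurons, astrocytes, oligodendrocytes, microglia and endothelium were above 0 in every library, and the lowest sum was 71.7 CPM, for endothelium in control. No single marker lacked counts in all libraries. The summed neuronal markers ran from 1776 to 3715 CPM in control and from 2378 to 3712 CPM in deltamethrin. In whole tissue, fewer cells of a type and less RNA per cell cannot be told apart.

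The 3 Jun genes supplied most of the family's mRNA. Per kilobase of exon, Jund was the most abundant at 27.4 ± 3.58 CPM per kb (SD, n = 31), followed by Junb at 19.3 ± 12.2, Jun at 10.8 ± 1.90, Fos at 3.77 ± 3.90, Fosl2 at 2.35 ± 0.812 and Fosb at 1.21 ± 1.21. Jund lay above Junb in 28 of 31 libraries, Junb above Jun in 27 and Jun above Fos in 29. Exon lengths were those of GENCODE M21 with the exons of all transcripts of a gene merged. These came to 6243 bases for Fosb and 9680 for Fosl2, so low values per kb in both depend on them. The start of Jund there lies 1210 bases from that of RefSeq. A longer Jund would have lower values per kb and a smaller share. Without division by length, Jund and Junb were close, at means of 45.6 and 44.3 CPM, so their order per kb rests on the lengths used. Fos lay above Fosl2 in only 17 of 31 libraries, and Fosl2 lay above Fosb in 29. Without division by length, Fosl2 had a mean of 22.8 CPM, above Fos at 8.86 and Fosb at 7.58. The order of Fos and Fosl2 thus also rests on the lengths used, and their difference in level was not tested. Fosl1, at 2.24 ± 0.468 CPM per kb, was close to Fosl2. Jun genes made up a median 89.4% of the family's mRNA per kb in control (range 78.6% to 93.5%) and 90.5% in deltamethrin (81.1% to 92.8%), ranges that overlap almost throughout.

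For none of the 6 genes did the groups differ once p-values were adjusted over the whole table. The edgeR quasi-likelihood test called 0 of 19529 genes at an adjusted p under 0.05 (0%), as did DESeq2 and limma voom. At an unadjusted p under 0.05 edgeR gave 853 genes (4.37%), DESeq2 986 and voom 847. Among the 6 members 0 passed the unadjusted threshold in edgeR, while Junb passed it in voom (-0.45 ± 0.21, p = 0.0394, adjusted p = 0.821). The lowest member p-values belonged to Junb and Fos, both lower on average with deltamethrin, and for every member the interval of the difference is given, since a p-value above the threshold does not show equal levels.

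Fos encodes the founding Fos subunit, c-Fos, widely used as a mark of recently active neurons. It lies on chromosome 12 at 85473890-85477273 on the plus strand (GRCm38, ENSMUSG00000021250), with 2352 exonic bases in 4 exon blocks. In control libraries Fos ran from 2.45 through a median of 7.95 to 42.7 CPM, and in deltamethrin libraries from 2.82 through 5.15 to 36.2 CPM. All 18 deltamethrin libraries lay inside the control range, and 14 of them lay below the control median. Each group had 1 library far above the rest: in control the next highest stood at 19.0 CPM, and in deltamethrin at 10.3 CPM. The fitted log2 fold change was -0.68 ± 0.38 (SE), a fold of 0.623 with a 95% interval of 0.364 to 1.07 (edgeR p = 0.0804, adjusted p = 0.813). Those high libraries, control replicate 10 and deltamethrin replicate 5, set the size of the estimate: it was -0.31 without the former and -1.07 without the latter, where p was 0.00158 and the adjusted p 0.713.

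Fosb encodes FosB and, by alternative splicing, the long-lived ΔFosB that builds up under repeated stimulation; the counts are per gene and do not separate these forms. The gene lies on chromosome 7 at 19302696-19310051 on the minus strand (ENSMUSG00000003545). Fosb ran from 2.90 through 6.10 to 36.5 CPM in control and from 4.11 through 5.75 to 34.5 CPM in deltamethrin. The groups overlapped fully, and apart from 1 library the deltamethrin values were packed between 4.11 and 6.30 CPM. The log2 fold change was -0.24 ± 0.32, a fold of 0.849 with an interval of 0.541 to 1.33 (edgeR p = 0.462, adjusted p = 0.868). Its sign turned on the same libraries, with 0.24 without control replicate 10 and -0.59 without deltamethrin replicate 5.

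Fosl2 encodes Fra-2, a Fos-related subunit without the strong activation domain of c-Fos, and lies on chromosome 5 at 32135801-32157842 on the plus strand (ENSMUSG00000029135). It ran from 11.8 through 22.8 to 48.0 CPM in control and from 15.5 through 20.8 to 43.1 CPM in deltamethrin, and all 18 deltamethrin libraries lay inside the control range. The log2 fold change was 0.078 ± 0.16, a fold of 1.06 with an interval of 0.846 to 1.32 (edgeR p = 0.621, adjusted p = 0.915). Without control replicate 10 it was 0.23, and without deltamethrin replicate 5 it was 0.014. Fosl1, which encodes Fra-1, had medians of 4.70 CPM in control and 4.75 CPM in deltamethrin and a log2 fold change of 0.068 ± 0.12 (edgeR p = 0.558, adjusted p = 0.897), but 57.2% of its exonic length overlaps Ccdc85b on the other strand, and use of strand in counting is not stated.

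Among the Jun genes, Junb encodes JunB, an immediate early subunit that is a weaker activator than c-Jun at many sites. It lies on chromosome 8 at 84974484-84978718 on the minus strand (ENSMUSG00000052837), and 7.52% of its exonic length overlaps Prdx2. Junb ran from 25.4 through 45.0 to 141 CPM in control and from 19.6 through 32.9 to 139 CPM in deltamethrin. Of the deltamethrin libraries, 16 of 18 lay below the control median and 5 lay below the lowest control, while the highest library of each group stood at nearly the same level. The log2 fold change was -0.43 ± 0.23, a fold of 0.741 with an interval of 0.532 to 1.03 (edgeR p = 0.0735, adjusted p = 0.813). It was -0.21 without control replicate 10 and -0.66 without deltamethrin replicate 5, where p was 0.000712 and the adjusted p again 0.713.

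Jun encodes c-Jun, the subunit phosphorylated by the JNK kinases and a known responder to axon injury and stress. It is a gene of 1 exon on chromosome 4 at 95049034-95052222 on the minus strand (ENSMUSG00000052684), and 7.28% of that exon overlaps the antisense transcript Junos, which had only 30 to 79 counts per library. Jun ran from 24.4 through 33.3 to 41.6 CPM in control and from 25.8 through 33.7 to 48.9 CPM in deltamethrin. The medians nearly coincided, and 3 deltamethrin libraries lay above the highest control. The log2 fold change was 0.083 ± 0.089, a fold of 1.06 with an interval of 0.934 to 1.20 (edgeR p = 0.356, adjusted p = 0.840).

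Jund encodes JunD, the most constantly expressed Jun subunit, from a single exon on chromosome 8 at 70698949-70700616 on the plus strand (ENSMUSG00000071076). It ran from 33.3 through 45.0 to 55.1 CPM in control and from 36.5 through 46.0 to 55.3 CPM in deltamethrin, and 17 of 18 deltamethrin libraries lay inside the control range. The log2 fold change was -0.0066 ± 0.071, with a fold interval of 0.901 to 1.10 (edgeR p = 0.926, adjusted p = 0.985), so a change beyond about 10% in either direction lies outside the interval. The antisense model Gm11175 covers 52.6% of the Jund exon and had 0 counts in all libraries. How reads in this overlap were counted is not stated.

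**Figure D1:**
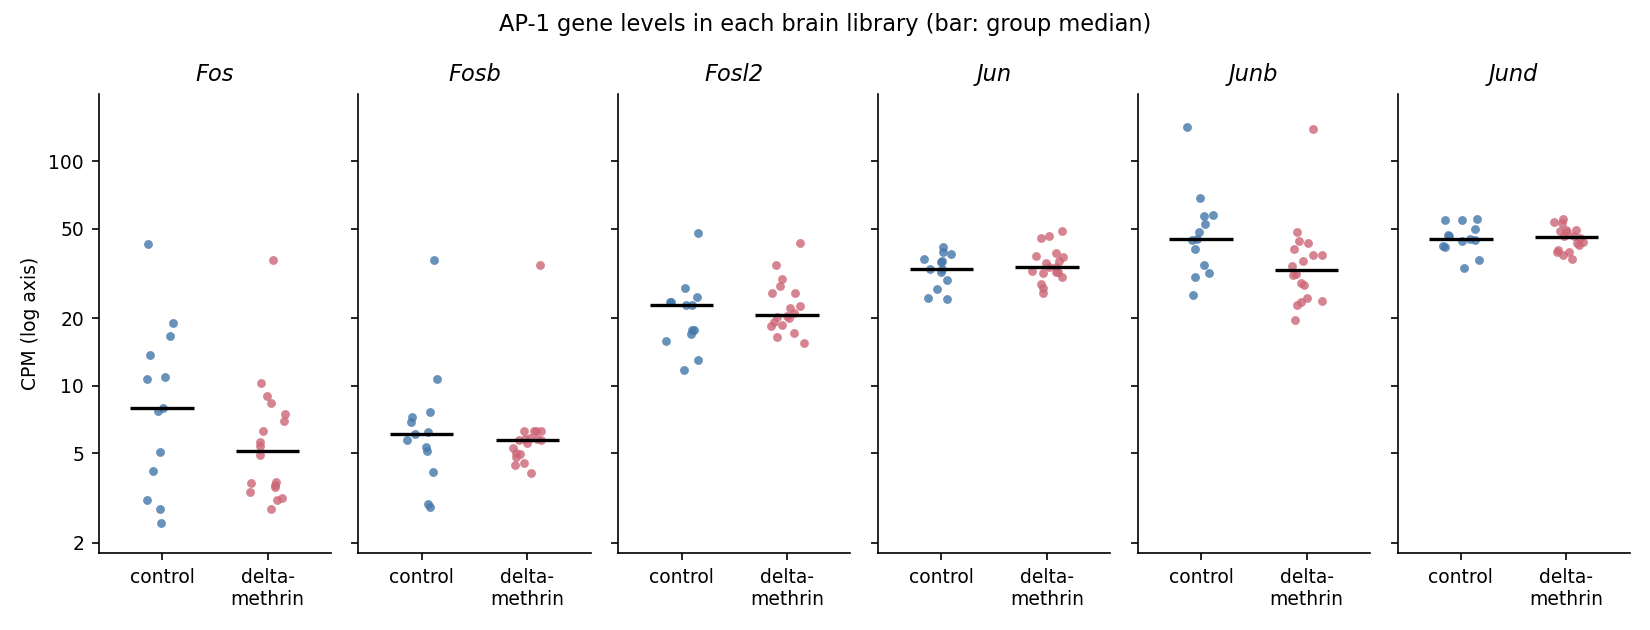
Levels of the 6 AP-1 genes in each library, in CPM on a log axis. Points are libraries (13 control, 18 deltamethrin, with sideways jitter only for legibility) and bars are group medians; Fos, Fosb and Junb each have 1 library per group far above the others, while Jun and Jund are tightly grouped.

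**Figure D2:**
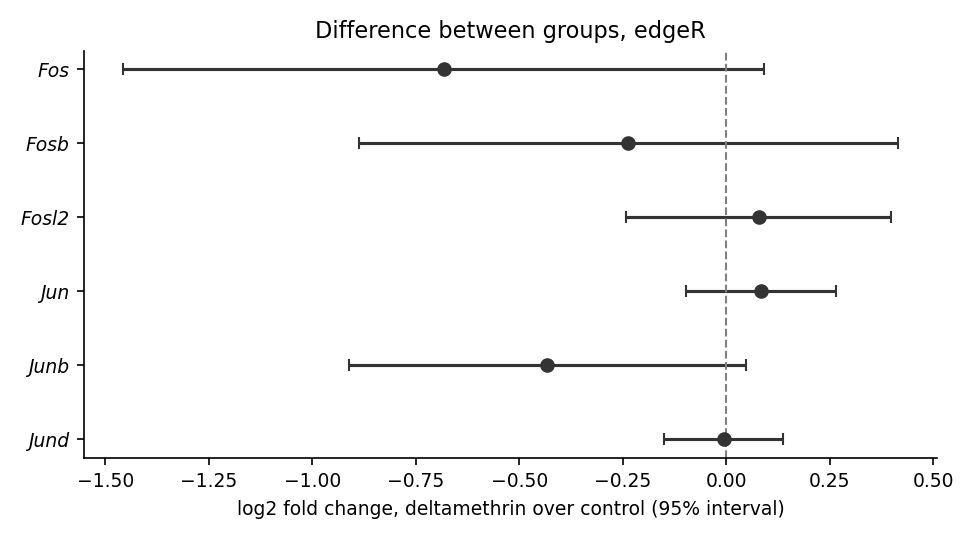
Fitted log2 fold change of deltamethrin over control for each gene, with 95% intervals from edgeR. Every interval includes 0, and the interval of Fos (-1.46 to 0.092) is several times as wide as that of Jund (-0.15 to 0.14).

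The members differed widely in how much they varied from library to library. For each gene the SD of log2 CPM was pooled within the groups and ranked among the 19529 genes tested, whose median SD was 0.288. Fos had an SD of 1.03, larger than in 99.7% of genes, and only 50 genes exceeded it. Fosb followed at 0.770 (percentile 97.6) and Junb at 0.626 (percentile 92.6), with Fosl2 between at 0.446 (percentile 77.0). Jun, at 0.253 (percentile 40.7), and Jund, at 0.195 (percentile 23.1), varied no more than a typical gene. At their mean counts, counting error alone would give a coefficient of variation of 5.99% for Fos and 6.50% for Fosb, where the observed coefficients over the 31 libraries were 104% and 100.1%, and of 2.64% for Jund, where the observed value was 13.1%. The biological coefficient of variation fitted by edgeR ranked the genes alike, from 70.3% for Fos to 13.8% for Jund against a median of 18.3%.

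**Figure D3:**
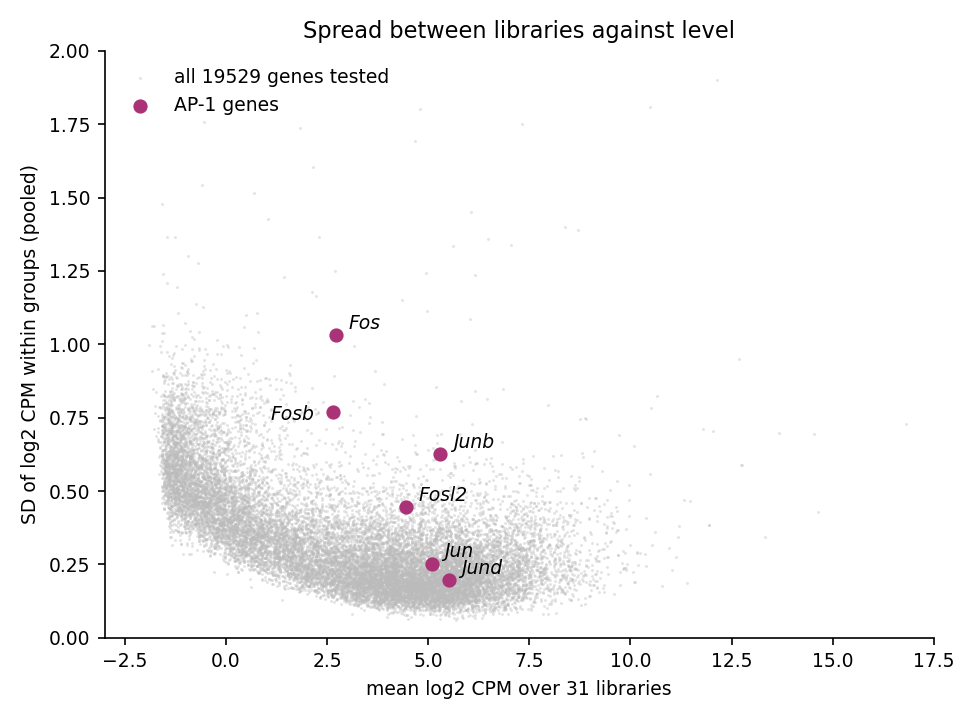
Pooled within-group SD of log2 CPM against mean log2 CPM over the 31 libraries for the 19529 genes tested (grey) and the 6 AP-1 genes (purple, labelled). Fos, Fosb and Junb stand above the bulk of genes of like level, and Jun and Jund lie within it.

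The same libraries were high in most members. Control replicate 10 and deltamethrin replicate 5 were the top 2 of 31 in Fos, Fosb, Fosl2, Junb and Jund, and ranked 7 and 1 in Jun. At the other end, control replicate 7 was lowest in Fos, Fosb and Jund. Without control replicate 10 and deltamethrin replicate 5 the pooled SD was 0.375 in place of 0.770 for Fosb, 0.402 in place of 0.626 for Junb and 0.792 in place of 1.03 for Fos. The group comparison without both libraries gave 2 members at an unadjusted p under 0.05, Fos (p = 0.0134) and Junb (p = 0.00292), with an adjusted p of 0.922 for each, where 3.39% of all genes passed the unadjusted threshold. Since these libraries were picked for their Fos level, a smaller SD and smaller p-values in Fos, and in genes that track it, were built into that comparison, and these p-values are a description only. Leaving out deltamethrin replicate 5 alone gave 3 members, with 5.67% of all genes, and leaving out control replicate 10 alone gave 0, with 2.68%.

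Spread was somewhat larger in control than in deltamethrin for Fos and Fosb, but by less than the test could separate over all libraries. The mean absolute deviation of log2 CPM from the group median was 0.960 in control and 0.644 in deltamethrin for Fos (difference -0.32, limma p = 0.162), and 0.563 against 0.286 for Fosb (difference -0.28, limma p = 0.220). Both differences rested on the high libraries: without control replicate 10 they were -0.19 for Fos and -0.11 for Fosb, and without deltamethrin replicate 5 they were -0.44 (limma p = 0.0154) and -0.41 (limma p = 0.0174), with an adjusted p that still rounds to 1. The difference of Fosl2 was -0.039 without the former. As these libraries were picked for their Fos level, the p-values without them are a description only. The differences of Fosl2 (-0.096), Jun (-0.0031), Junb (-0.017) and Jund (-0.016) were smaller, and the adjusted p was 0.9999 for every member. In limma 0 of the 19529 genes passed an adjusted p under 0.05 for spread (0%), and 509 (2.61%) passed the unadjusted threshold, none of them a member. The SD was larger in control for 58.4% of all genes, so the direction seen in Fos and Fosb was also the commoner one.

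Pairs of members were compared across the 31 libraries, 15 pairs in all, with p-values from 100000 permutations adjusted over the 15. All 15 correlations were positive, from 0.303 to 0.891, and 14 had an adjusted p under 0.05, or 10 by rank. The 2 closest pairs joined Fos with Junb and with Fosb. Fos and Junb had r = 0.891 (rho = 0.819, adjusted permutation p = 5e-05), with 0.917 within control, 0.872 within deltamethrin and 0.798 without the 2 libraries farthest from the Fos median. Fos and Fosb had r = 0.849 (rho = 0.799, adjusted permutation p = 5e-05), with 0.875 and 0.850 within the groups and 0.758 without the 2 farthest. Fosb and Fosl2 followed at r = 0.812 (rho = 0.694), and this pair was closer within control (0.949) than within deltamethrin (0.675), a difference that was not tested. Fosb and Junb had r = 0.787 (rho = 0.541, adjusted permutation p = 0.0001), but r was only 0.411 without the 2 farthest libraries, below that of Fosb with Fosl2 (0.680) on the same measure.

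Jund was joined to the other members more loosely, with r between 0.390 and 0.548. Fos and Jund had r = 0.436 (rho = 0.349, adjusted permutation p = 0.0163), which was 0.253 without the 2 farthest libraries. Jun was closest to Fosl2, with r = 0.718 (rho = 0.716), 0.797 within control, 0.648 within deltamethrin and 0.697 without the 2 farthest. Jun and Fosb had r = 0.576 (rho = 0.619), which was 0.577 without the 2 farthest. Jun and Junb were the least related pair, with r = 0.303 (rho = 0.208, adjusted permutation p = 0.098). The relation of Fosl2 and Junb (r = 0.468, adjusted permutation p = 0.0131) rested on the 2 farthest libraries, since without them r was -0.024. All values in a library share its depth and scaling.

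**Figure D4:**
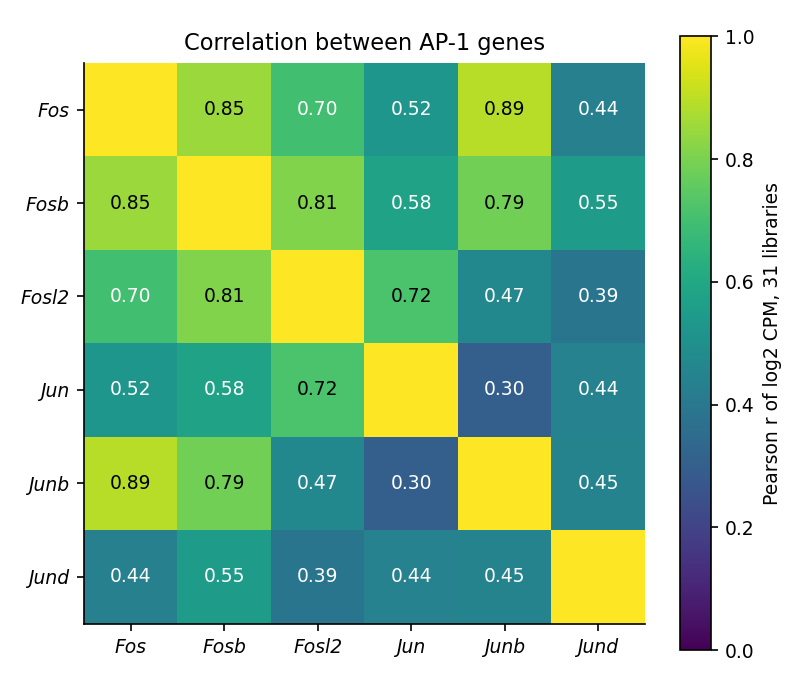
Pearson r of log2 CPM between each pair of AP-1 genes over the 31 libraries (colour and printed value). The highest values join Fos with Junb (0.89) and with Fosb (0.85), and the lowest is between Jun and Junb (0.30).

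**Figure D5:**
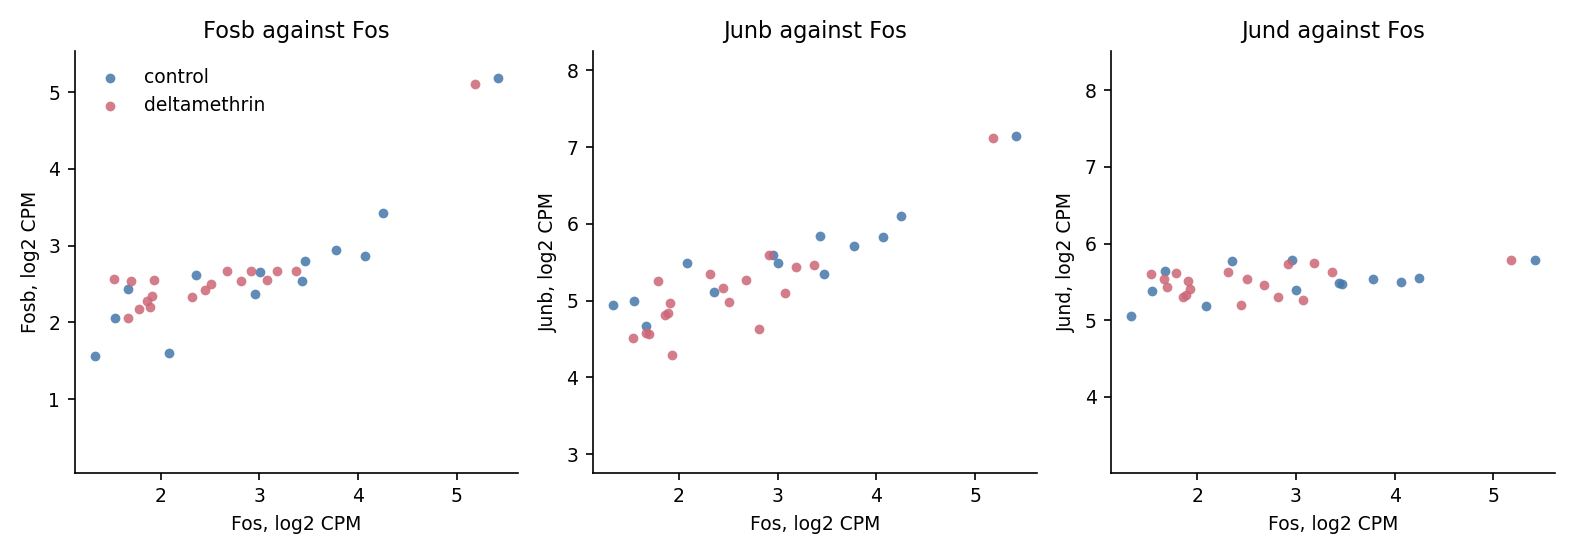
Fosb, Junb and Jund (log2 CPM, vertical) against Fos (log2 CPM, horizontal) in each control (blue) and deltamethrin (red) library; the vertical span is equal in the 3 panels. Fosb and Junb are higher where Fos is higher in both groups, while Jund changes little over the whole range of Fos.

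Fosb and Junb were the members most closely correlated with Fos, and the 160 bases just before the RefSeq start sites of the 3 genes (GRCm38.p6, written 5′ to 3′ on the gene's strand) are shown, with Jun for contrast. Capitals mark TGACG, the core of the cAMP response element bound by CREB and ATF proteins, in Fos, Fosb and Junb, and TGACATCA, a variant AP-1/ATF site, in Jun. The windows are chr12:85473730-85473889 for Fos, chr7:19310046-19310205 for Fosb, chr8:84978749-84978908 for Junb and chr4:95052223-95052382 for Jun.
Fos: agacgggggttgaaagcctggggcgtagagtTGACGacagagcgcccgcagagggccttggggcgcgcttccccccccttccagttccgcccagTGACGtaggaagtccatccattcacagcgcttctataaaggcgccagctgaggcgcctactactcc
Fosb: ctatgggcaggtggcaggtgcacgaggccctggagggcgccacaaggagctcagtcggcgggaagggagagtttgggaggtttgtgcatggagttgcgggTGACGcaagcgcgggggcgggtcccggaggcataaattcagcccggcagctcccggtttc
Junb: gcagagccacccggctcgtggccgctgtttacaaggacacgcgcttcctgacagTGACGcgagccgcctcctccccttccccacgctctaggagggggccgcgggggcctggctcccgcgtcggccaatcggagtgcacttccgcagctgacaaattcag
Jun: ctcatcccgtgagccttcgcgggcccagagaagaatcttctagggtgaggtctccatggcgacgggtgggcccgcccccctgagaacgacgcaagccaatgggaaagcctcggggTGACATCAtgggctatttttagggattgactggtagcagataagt
Over the 250 bases before each start and on either strand, TGACG was found in 3 of the 4 genes shown, at -129 to -125 and -66 to -62 in Fos, -60 to -56 in Fosb and -106 to -102 in Junb, and in 17.77% of 32851 RefSeq windows of the same length. TGACATCA was found at -45 to -38 in Jun and in 2.93% of windows. Within the same 250 bases, the full element TGACGTCA, the AP-1 site TGACTCA and the CArG box bound by SRF were found in 0 of these 4 genes. They were found in 1.55%, 4.46% and 1.47% of windows. Bases farther from the start were not searched, so sites there would have been missed. These motifs can overlap, since TGACGTCA contains TGACG. The RefSeq starts of Fosl2 and Jund lie 671 and 1210 bases from those of GENCODE M21, so their windows are not shown. With their RefSeq windows included, TGACG was found in 3 of the 6 members.

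Outside the family, the genes whose levels tracked each member most closely were sought among 15712 others by Pearson r over the 31 libraries, given as a description. Nearest to Fos were Arc (r = 0.935), a synaptic immediate early gene, and Egr4 (0.919) and Egr2 (0.912), zinc finger genes of the same early response. Junb had nearly the same neighbours, Arc (0.941), Arl4d (0.919), which encodes a small GTPase, and Egr2 (0.914). Nearest to Fosb were Egr4 (0.913), the ERK phosphatase gene Dusp6 (0.892) and Nptx2 (0.884), which encodes a secreted synaptic pentraxin. Without control replicate 10 and deltamethrin replicate 5, r with Arc was still 0.897 for Fos and 0.888 for Junb, but the r of Fosb with Dusp6 was 0.575.

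Fosl2 lay nearest to Egr3 (r = 0.824), Phf13 (0.811) and the survival gene Mcl1 (0.811). Jun lay nearest to Irf2bpl (0.878), Nckap5l (0.843) and, like Fosl2, Egr3 (0.841). The 3 genes nearest to Jund were Srxn1 (0.912), which encodes the antioxidant enzyme sulfiredoxin, Rnf187 (0.888) and Insyn1 (0.887), an inhibitory synapse gene, and none of them was among the 3 nearest to another member. Few genes passed r = 0.7 with Fos (23, or 0.146%), Fosb (31), Fosl2 (22) or Junb (33), whereas 531 genes (3.38%) did with Jun and 409 (2.60%) with Jund.

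Jun and Fosl2 were lower in libraries richer in mitochondrial rRNA. With the log2 of that share, over 6 correlations adjusted together, Jun had r = -0.76 (rho = -0.74, adjusted permutation p = 0.00012), with -0.89 within control, -0.66 within deltamethrin and -0.67 without the 2 whose share lay farthest from the median. Fosl2 had r = -0.57 (rho = -0.66, adjusted permutation p = 0.00303), with -0.60 and -0.52 within the groups and -0.40 without the 2 farthest. For Fos (r = -0.22), Fosb (-0.25), Junb (0.135) and Jund (-0.15) the adjusted permutation p ran from 0.337 to 0.47, although by rank Fosb had rho = -0.41 (adjusted permutation p = 0.0464). Over the 31 libraries, log2 Jun also followed the summed markers of neurons (r = 0.629), astrocytes (0.531) and endothelium (0.412) and, inversely, those of blood (-0.54). Log2 Fosl2 followed astrocyte (r = 0.495) and neuronal markers (0.471) alike. The part of these markers in the relations with mitochondrial share was not tested.

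The other genes around AP-1 were read from 4 lists. Of 15 other bZIP partners, 13 were tested, 7 with a higher and 6 with a lower estimate in deltamethrin, and their median log2 fold change was 0.068 against 0.0014 for all genes tested. That sign rested on 1 library, since without deltamethrin replicate 5 the median was -0.073, with 7 of 13 lower. By edgeR 0 passed an adjusted p and 0 an unadjusted p under 0.05. The smallest p-values were those of Jdp2, a repressor that dimerises with Jun proteins (-0.13 ± 0.078, p = 0.0947), Batf3 (-0.29 ± 0.17, p = 0.0956) and the stress gene Ddit3 (-0.17 ± 0.099, p = 0.0972). The 22 inducers and kinases of AP-1 included Srf, the ELK genes and the ERK, JNK and p38 kinases. They divided into 13 higher and 9 lower estimates with a median of 0.028. Without scaling factors 17 were higher and 5 lower, but the medians were then 0.068 for the list and 0.043 for all genes tested. In the main fit 0 passed either threshold. Elk3 (0.116 ± 0.073, p = 0.119), Rps6ka4 (-0.096 ± 0.061, p = 0.120) and Map2k2 (-0.11 ± 0.070, p = 0.137) had the smallest p-values.

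Other immediate early genes leaned the way of Fos and Junb. Of 30 tested, 23 had a lower estimate in deltamethrin, where 49.5% of all genes did, and the median log2 fold change was -0.18. Without control replicate 10 the median was -0.088, with 19 of 30 lower, and without deltamethrin replicate 5 it was -0.24, with 27 lower. Over all libraries, 462 of the 19529 genes tested were lower and 391 higher at an unadjusted edgeR p under 0.05 (4.37% together). Among the 30, 6 were lower and 0 higher at that threshold, and 0 passed an adjusted p under 0.05. The smallest p-values were those of Ier2, an early nuclear regulator (-0.45 ± 0.14, p = 0.00255), Ccn1, a secreted matrix protein gene (-0.64 ± 0.20, p = 0.00343), and the clock gene Per1 (-0.28 ± 0.094, p = 0.00494), each with an adjusted p of 0.813. Arc, the nearest neighbour of Fos and Junb, had a mean of 106 CPM in control and 88.7 CPM in deltamethrin (-0.25 ± 0.22, p = 0.265). Of the 30 genes, 16 had an r over 0.7 with Fos and 1 with Jund. The estimates are thus not independent of one another or of Fos, and 23 of 30 is not separate agreement with it. The count of 6 was 4 without control replicate 10, 17 without deltamethrin replicate 5 and 13 without both. In those fits 2.68%, 5.67% and 3.39% of all genes passed the unadjusted threshold in either direction. Both libraries were picked for their Fos level, so shifts in genes that track Fos were partly built in. The counts and medians of the list without them are a description only. Without scaling factors 20 of 30 estimates were lower and 3 passed the unadjusted threshold, where 713 of all genes did in either direction. The medians were then -0.15 for the list and 0.043 for all genes tested.

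Some of the marker lists also had estimates that leaned between the same groups, and their part in the immediate early values was not tested. Choroid plexus markers were lower in deltamethrin in 7 of 7 estimates (2 at an unadjusted edgeR p under 0.05), with summed levels of 266 to 1284 CPM in control and 247 to 724 CPM in deltamethrin. Striatal markers were lower in 6 of 6 (429 to 842 CPM against 336 to 882 CPM) and blood markers in 5 of 5 (492 to 1670 CPM against 380 to 1242 CPM). Cerebellar markers were higher in 6 of 6 (64.3 to 430 CPM against 81.4 to 577 CPM) and astrocyte markers in 5 of 5 (427 to 730 CPM against 491 to 966 CPM). At an unadjusted edgeR p under 0.05, 0 of the striatal, blood, cerebellar and astrocyte markers passed, where 4.37% of all genes did. The ranges of the groups overlapped in each of these lists, and no marker in them was at 0 in every library. The remaining lists were mixed, with 4 higher and 2 lower for neurons, 2 and 3 for oligodendrocytes, 3 and 2 for microglia and 4 and 1 for endothelium. Microglia and endothelium each had 1 marker under that threshold, and neurons and oligodendrocytes had 0.

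Genes known to be driven through AP-1 sites were divided almost evenly. Of 15 listed, 13 were tested, 7 higher and 6 lower, with a median log2 fold change of 0.0063, and by edgeR 0 passed an adjusted or an unadjusted p under 0.05. Cdk5, a neuronal kinase gene (-0.16 ± 0.084, p = 0.0717), and the neuropeptide genes Nts (0.232 ± 0.13, p = 0.0855) and Pdyn (0.165 ± 0.096, p = 0.0961) had the smallest p-values.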

How the data were processed

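RNA was extracted with a column kit and sequenced on an Illumina NovaSeq, per the labels' protocols. Raw counts were deposited by the authors, as whole numbers per Ensembl gene ID and not normalized. The submitters' processing notes name GRCm38, Trimmomatic, HISAT2, SAMtools and MultiQC. The counting tool, its annotation and its use of strand are not given in the sources used here. Reads of overlapping genes may be split, shared or left uncounted. Groups came from the agent label, which matched the group row of the table in 31 of 31 samples.

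Genes were kept by filterByExpr (minimum count 10, minimum total 15), scaled by TMM and tested with edgeR 4.0.16 (quasi-likelihood F-test, robust, no covariates, R 4.3.3) with Benjamini-Hochberg adjustment over all 19529 genes. SEs were derived from the fold change and its F statistic. Log2 CPM used a prior count of 2. Spread was tested with limma 3.58.1 on the absolute deviation of log2 CPM from the group median. DESeq2 1.42.0, voom, other scalings, filters and covariates, and leaving out each sample were alternatives; leaving out the 2 libraries highest in Fos, together and singly, other scalings for the gene lists, and DESeq2 without replaced counts were added after seeing the data. Correlations used two-sided permutation tests with 100000 resamples. The procedures were run on simulated data in which, apart from the changes put in, every gene varied alike. This does not show how they perform for genes as variable as Fos, Fosb and Junb. Named genes were the 6 members, Fosl1, the 3 most correlated genes per member (mean CPM at least 1) and the 3 smallest p-values per list; Arc in the group comparison was chosen after its values were seen. Mkl1, Mkl2 and Cyr61 were matched by synonym. Positions and lengths are those of GENCODE M21 (GRCm38), and promoter sequences are from RefSeq (GRCm38.p6), matched for 6 of 6 genes. The members and lists were chosen with earlier results of these data known.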

Additional observations from a re-analysis of the deposited data

How the results depend on the processing

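No paired analysis was possible because the labels hold no number that ties a control sample to a deltamethrin sample. The number of genes called between groups was 0 under every alternative run. For spread it was 0 except with no count filter, where 3 genes with 10 to 17 counts in total were called. The log2 fold change of Jund, near 0 throughout, was 0.027 without scaling, 0.0019 on upper quartile scaling, 0.00091 when no genes were filtered out and 0.0033 without the 2 libraries highest in Fos, and -0.039 to 0.018 when each library was left out. That of Fosb was 0.26 with DESeq2, which replaced the count of 1013 in control replicate 10 by 159, and -0.22 with no count replaced; leaving out each library gave -0.59 to 0.24. The other 4 members kept their sign in every fit. The spread difference of Jun was 0.045 with mitochondrial rRNA share as a covariate. That of Fosb was -0.14 there, against -0.28. Leaving out each library moved the spread difference between -0.44 and -0.19 for Fos, -0.41 and -0.11 for Fosb, -0.14 and -0.039 for Fosl2, -0.023 and 0.018 for Jun, -0.11 and 0.084 for Junb, and -0.028 and 0.0066 for Jund. The correlation of Jun and Junb passed the threshold with no scaling factors (r = 0.367), with group means removed (0.389) and as residuals on mitochondrial share (0.629), and that of Fosl2 and Jund no longer passed with upper quartile factors (0.335, adjusted permutation p = 0.0688). With no scaling factors, r with mitochondrial share was -0.058 for Junb and -0.58 for Jund (adjusted permutation p = 0.00164). The cause of these shifts was not tested, other than the replaced count.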
